A study of Mus musculus with 56 samples.

Results

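Of 292001 autosomal peaks counted by bulk ATAC-seq in mouse granulocyte-monocyte progenitor (GMP) clones, 5840 held 10 or fewer counts when all 56 libraries were added together. These peaks, called closed peaks here, were selected on their own counts, so their low level is a description and was not tested. ATAC-seq uses a transposase that cuts DNA where chromatin is accessible, and a peak is a short region in which such cuts gather in some cell. The peak set joined summits called on single-cell ATAC-seq of progenitors with regions from an atlas of immune cell types, and the deposited files do not mark which peak came from which source. The label of the set presumes regions open in other blood cells. Which cell types the closed peaks are open in cannot be read from these counts, so the peaks are called here by their rule. They were AT-rich, often far from coding start sites, and unevenly spread over the marker genes of blood and other lineages.

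All clones came from 1 Tet2 fl/fl mouse and were immortalized with Hoxb8 fused to an estrogen receptor domain, in 0.5 µM beta-estradiol. Each clone grew from 1 GMP cell and was divided into a Tet2 KO line (integrase-defective lentivirus with Cre) and a control line (the same vector with GFP), at an MOI of 200, and all lines, controls included, came from floxed cells. SCF (100 ng/ml) was used for 24 clone pairs, numbered 1 to 5, 7 to 18 and 23 to 29, and GM-CSF (10 ng/ml) for 4 pairs, 19 to 22. A library was made from 1000 cells, the clone was the replicate, and a knockout line of a clone is 1 cell lineage in culture rather than a progenitor in an animal. The titles of clones 20, 21 and 22 name SCF, but their treatment label gives GM-CSF, which was taken as their cytokine.

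GMPs give rise to neutrophils and monocytes, and their open chromatin is shaped by PU.1, C/EBP and RUNX factors. Tet2 is an enzyme that oxidizes 5-methylcytosine, a step toward DNA demethylation, and its loss favors myeloid expansion. Chromatin that a cell type does not use is mostly wrapped in regularly spaced nucleosomes, and gene-poor, AT-rich parts of mammalian chromosomes are often compacted at the nuclear lamina. In such regions ATAC-seq gives scattered single counts.

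To show what these regions look like, the closed peak nearest to a start site was taken for each of 7 marker lists of other cell types, and 1 peak without any count was added. Each sequence is the plus strand of mm10 (read from GRCm38, the same assembly), the first 300 bases of the peak, with capitals on matches, on either strand, to the site of GATA factors (AGATAA), PU.1 and other ETS factors (GAGGAAGT), RUNX (TGTGGT), C/EBP (TTNNGCAA) or AP-1 (TGANTCA).
Ctla4, T cells, chr1:60903062-60903361: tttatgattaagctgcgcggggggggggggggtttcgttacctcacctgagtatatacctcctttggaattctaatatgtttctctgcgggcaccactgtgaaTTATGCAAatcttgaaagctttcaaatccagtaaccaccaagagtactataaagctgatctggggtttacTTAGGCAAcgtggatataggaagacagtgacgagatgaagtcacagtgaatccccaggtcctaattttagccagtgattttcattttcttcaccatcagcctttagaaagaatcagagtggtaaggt
Pou2af1, B and plasma cells, chr9:51211170-51211469: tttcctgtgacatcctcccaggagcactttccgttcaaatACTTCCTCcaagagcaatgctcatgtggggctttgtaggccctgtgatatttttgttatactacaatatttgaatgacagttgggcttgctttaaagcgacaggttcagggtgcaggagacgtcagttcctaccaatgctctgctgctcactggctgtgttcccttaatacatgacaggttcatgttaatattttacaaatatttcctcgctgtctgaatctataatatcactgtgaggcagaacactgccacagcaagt
Klrk1, NK and innate lymphoid cells, chr6:129622561-129622860: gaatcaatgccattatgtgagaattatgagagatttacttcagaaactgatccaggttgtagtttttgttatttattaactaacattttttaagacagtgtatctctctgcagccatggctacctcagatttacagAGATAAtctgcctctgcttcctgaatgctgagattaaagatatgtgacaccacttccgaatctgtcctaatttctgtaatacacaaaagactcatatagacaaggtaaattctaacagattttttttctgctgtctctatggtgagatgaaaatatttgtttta
Pf4, Erythroid cells and megakaryocytes, chr5:90777740-90778039: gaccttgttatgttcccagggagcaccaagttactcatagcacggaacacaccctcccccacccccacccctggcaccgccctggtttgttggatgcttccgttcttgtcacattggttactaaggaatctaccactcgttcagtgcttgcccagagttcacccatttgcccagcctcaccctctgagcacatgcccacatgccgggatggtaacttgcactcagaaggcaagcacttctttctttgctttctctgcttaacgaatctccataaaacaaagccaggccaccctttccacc
Tek, Endothelial cells, chr4:94744922-94745221: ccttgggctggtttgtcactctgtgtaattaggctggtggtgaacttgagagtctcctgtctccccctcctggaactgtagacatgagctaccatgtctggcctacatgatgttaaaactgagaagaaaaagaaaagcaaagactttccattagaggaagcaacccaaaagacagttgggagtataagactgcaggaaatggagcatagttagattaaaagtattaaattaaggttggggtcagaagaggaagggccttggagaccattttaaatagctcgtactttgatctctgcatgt
Col3a1, Fibroblastic and reticular stroma, chr1:45304324-45304623: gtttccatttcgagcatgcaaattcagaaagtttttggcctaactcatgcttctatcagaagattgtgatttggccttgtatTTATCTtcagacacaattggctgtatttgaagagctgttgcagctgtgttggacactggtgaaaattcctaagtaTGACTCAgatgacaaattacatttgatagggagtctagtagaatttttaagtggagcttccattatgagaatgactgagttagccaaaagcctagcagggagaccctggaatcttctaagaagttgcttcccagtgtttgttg
Pax1, Epithelial and thymic epithelial cells, chr2:147361558-147361857: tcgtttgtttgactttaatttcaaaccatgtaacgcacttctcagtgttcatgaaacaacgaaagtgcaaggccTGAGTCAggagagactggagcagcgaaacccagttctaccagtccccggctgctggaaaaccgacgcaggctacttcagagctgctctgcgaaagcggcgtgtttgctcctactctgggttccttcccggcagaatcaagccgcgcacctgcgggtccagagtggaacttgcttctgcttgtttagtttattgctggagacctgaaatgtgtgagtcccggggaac
Trav14d-3-dv8, shown for its 0 counts, chr14:53081827-53082126: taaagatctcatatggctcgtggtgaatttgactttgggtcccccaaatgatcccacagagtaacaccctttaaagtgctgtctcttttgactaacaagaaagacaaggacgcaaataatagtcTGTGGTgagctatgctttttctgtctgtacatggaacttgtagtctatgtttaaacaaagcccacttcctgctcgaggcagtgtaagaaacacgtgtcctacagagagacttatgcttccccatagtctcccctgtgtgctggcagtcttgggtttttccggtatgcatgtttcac

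The peak at Klrk1, which encodes the activating receptor NKG2D of natural killer cells, lay 61 bp from the start site, and its 8 counts were 4 in SCF control lines, 3 in SCF Tet2 KO lines, 0 in GM-CSF control lines and 1 in GM-CSF Tet2 KO lines. Its GC content was 33.9%, and the same window held 1 CpG. The intronic peak of Ctla4, the inhibitory receptor of T cells, had 7 counts in SCF control lines and 3 in SCF Tet2 KO lines, and C/EBP letters matched at 2 places in it. The peaks beside Pou2af1 (a B cell coactivator), Pf4 (platelet factor 4), Tek (the angiopoietin receptor of endothelium), Col3a1 (fibrillar collagen) and Pax1 (a thymic epithelial regulator) had 8, 10, 10, 9 and 10 counts in all. The Pf4 and Tek windows held none of the 5 motifs. A match describes letters in a window and not a bound site.

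Closed peaks were the low tail of a single continuous distribution rather than a separate class. The median autosomal peak held 29 counts over all libraries and the 5th percentile was 13. Just inside the limit, 1969 peaks had 10 counts, and just outside it 2684 peaks had 11. At the bottom, 11 peaks had no count, 13 had 1 and 29 had 2. In all, closed peaks were 2.00% of autosomal peaks and held 49011 of 22379147 counts, or 0.219%.

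**Figure D1:**
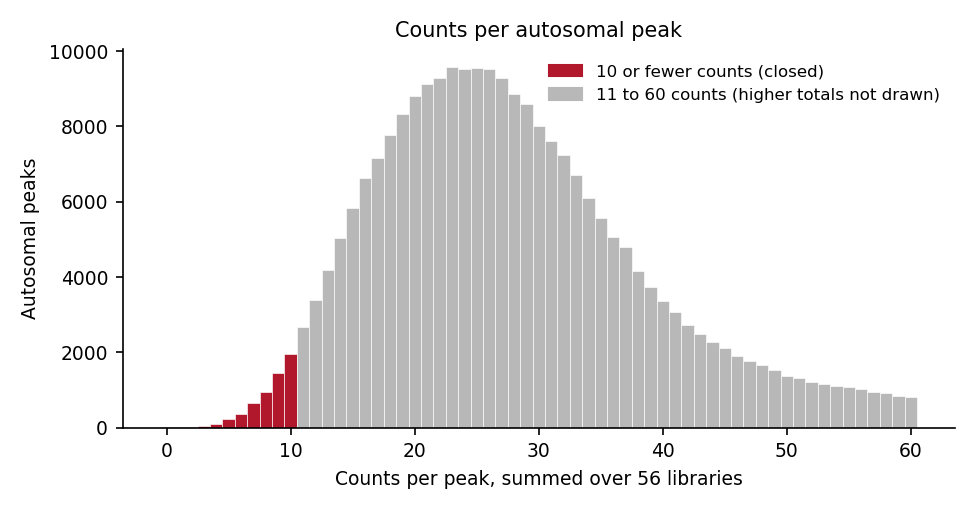
Number of autosomal peaks (y axis) at each total count over the 56 libraries (x axis, 0 to 60 counts), with closed peaks in red and the others in grey. The red bars rise from 11 peaks at 0 counts to 1969 at 10 counts and run without a gap into the 2684 peaks at 11 counts.

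The counts in closed peaks were scattered singly. Of all combinations of a closed peak and a library 13.7% held a count, and 91.0% of those held exactly 1. Entries of 2, 3 and 4 counts numbered 3760, 251 and 12. The median closed peak had counts in 8 libraries and 7 clones. A single library had 118 to 2221 counts in closed peaks, among totals of 39379 to 1079233 counts, and covered 2.00% to 32.0% of closed peaks. None of the 5840 peaks passed the expression filter of edgeR in any of the comparisons, against 12405 of all peaks over the 4 groups, so no closed peak could be tested singly.

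Closed peaks were poor in GC. Their median GC content was 39.9% (interquartile range 36.5% to 43.5%), against 50.8% (46.2% to 54.8%) in the other autosomal peaks and 56.1% in peaks with more than 100 counts. Among peaks under 35% GC, 26.5% were closed (929 of 3511), and the share fell to 12.1% between 35% and 40%, 4.08% between 40% and 45%, 1.11% between 45% and 50% and 0.213% between 50% and 55%. CpG dinucleotides, the substrate of DNA methylation, were correspondingly rare, with a median of 2 per closed peak, 4 in other peaks and 8 in peaks over 100 counts. No CpG at all was present in 16.4% of closed peaks and 5.14% of other peaks. The peaks with 11 counts, just outside the limit, were much like those with 10, with median GC contents of 40.9% and 40.5%.

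**Figure D2:**
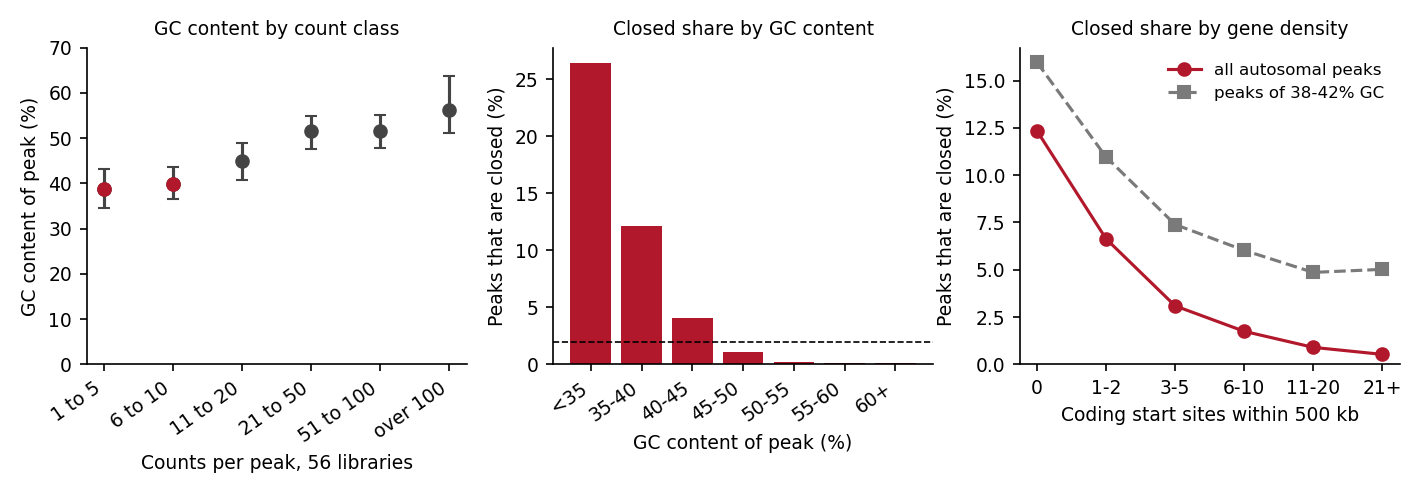
Left, median GC content (%) with interquartile range by counts per peak, closed classes in red. Middle, percent of autosomal peaks that were closed by GC content, with all peaks as a dashed line. Right, percent closed by the number of coding start sites within 500 kb, for all autosomal peaks and for those of 38% to 42% GC. The closed share falls from 26.5% under 35% GC and from 12.3% with no start site within 500 kb.

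Closed peaks also lay far from coding start sites, although more than 50% were inside genes or at promoters. The nearest coding start site was a median of 64.9 kb away, against 20.4 kb for other peaks and 3.65 kb for peaks over 100 counts, and 2360 closed peaks (40.4%) were more than 100 kb from one. For 110 of them the distance was 1 Mb or more. Introns held 48.4% of closed peaks, intergenic sequence 44.7%, promoters (within 1 kb of any annotated start site) 4.06% and other exons 2.86%. In the remaining autosomal peaks the promoter share was 11.6%. The closest peak with more than 100 counts was a median of 94.3 kb from a closed peak and 12.2 kb from another peak.

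Gene density and GC content go together along chromosomes, so the shares were also read at matched GC. Where no coding start site lay within 500 kb, 12.3% of autosomal peaks were closed, and where 21 or more did, 0.525% were. Within the narrow band of 38% to 42% GC the same shares were 16.0% and 5.02%. The gradient with gene density was thus smaller but still present at matched GC. By chromosome, the closed share ran from 0.845% on chromosome 11 and 1.02% on chromosome 19 to 2.99% on chromosome 14 and 3.18% on chromosome 3.

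Closed peaks were clustered. A closed peak had a closed neighbor in 17.3% of cases and another peak in 3.56%, and among uniquely placed peaks the shares were 16.1% and 3.42%. There were 379 runs of 2 consecutive closed peaks and 76 of 3 or more. A pair of runs reached 8 peaks, and in neither was any peak uniquely placed, meaning that each of its 5 pieces of 60 bases aligned to a single place in the genome. The first run covered chr1:85261862-85280646 at C130026I21Rik, beside the Sp100 family of nuclear body genes, with 31 counts in all. The second covered chr14:53079008-53337715 among variable segments of the T cell receptor alpha locus (Trav), with 19 counts.

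Other long runs were of different kinds. Slitrk1, which encodes a synaptic adhesion protein, had 5 consecutive closed peaks at chr14:108373891-108720854, of which 4 were uniquely placed. A run of 4 peaks lay at chr9:89200338-89205743 by Gm29094 and Mthfs, none of them uniquely placed.

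A minority of closed peaks lay in sequence with near-identical copies elsewhere, where reads cannot be assigned to a single place. Of the 5840 closed peaks, 4739 (81.1%) were uniquely placed, against 94.0% of other autosomal peaks. Of the 163 autosomal peaks with no unique piece, 81 (49.7%) were closed, against 1.73% of uniquely placed peaks. The treatment of reads with several equal alignments is not stated in the sources read, so low counts at these peaks cannot be told apart from unassigned reads.

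The peaks with no count at all were mostly of that kind. Of the 11, 6 had no unique piece and 1 had all 5 unique. Of these 11, 9 lay at 3 places: 3 at the Sp100 family repeat on chromosome 1 (between 85090592 and 85323509), 3 beside Ccl21a on chromosome 4 (between 42767265 and 42809725), and 3 at Trav segments on chromosome 14 (between 53081827 and 53132755). Ccl21a encodes a chemokine that draws lymphocytes and dendritic cells into lymph nodes, and all 3 of its nearest peaks were closed with 0 counts. The remaining pair lay near Zfp974 on chromosome 7 and in an intron of Adgb on chromosome 10. The Adgb peak (chr10:10190067-10190367) was the single uniquely placed peak without a count, at 37.9% GC.

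Multigene families differed widely in their share of closed peaks. Peaks nearest to vomeronasal receptor genes (pheromone receptors) were closed in 34 of 252 cases (13.5%), to T cell receptor segments in 21 of 270 (7.78%), to immunoglobulin segments in 31 of 421 (7.36%), to killer cell lectin-like receptors in 15 of 239 (6.28%) and to olfactory receptors in 44 of 805 (5.47%), beside 2.00% of all autosomal peaks. In these families 12, 2, 6, 5 and 27 of the closed peaks were uniquely placed. Within the T cell receptor and immunoglobulin families, loci differed. Over the kappa light chain region of chromosome 6, 25 of 191 peaks were closed, 6 of them uniquely placed. Over the heavy chain region of chromosome 12, 4 of 349 were closed. The T cell receptor beta region of chromosome 6 had 1 of 136. In neither of the latter regions was a closed peak uniquely placed. Other families lay low, with 0 of 207 peaks nearest to keratin genes, 0 of 71 nearest to schlafen genes, 0 of 163 nearest to histone genes and 13 of 1146 nearest to ribosomal protein genes closed. These families were picked after the values were seen.

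By nearest gene, closed peaks spread over 3083 of 18774 genes, and 1926 genes had a single one. Marcks, a protein kinase C substrate at the membrane cytoskeleton, had the most, with 19 closed of 119 nearest peaks. Robo2, a Slit receptor of axon guidance, had 17 of 65. Sel1l, an adaptor of endoplasmic reticulum degradation, had 16 of 118. Then followed Alcam (an adhesion molecule that binds CD6; 14 of 65), Cblb (a ubiquitin ligase restraining T cell activation; 14 of 129), Pcdh7 (a protocadherin; 14 of 78), Sema6d (a semaphorin; 14 of 111) and Trps1 (a GATA-type repressor; 14 of 124).

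Ccser1 and Cited2, a transcriptional coregulator, had 13 of 86 and 13 of 158. Adgrl3, Flrt2, B3galt2 and Mef2c had 12 each, and so did Nrxn3, Robo1, Slc10a2 and Tox, which tied with them. Adgrl3 and Flrt2 encode adhesion partners on neurons, and Mef2c and Tox are regulators of lymphocyte development among other tissues. The 15 genes with most closed peaks before these ties were nearest to 59 to 158 peaks of any kind, and the median of those peaks held 14 to 20 counts, below the 29 of all autosomal peaks. In the 19 closed peaks of Marcks, the SCF control lines had 75 counts, the SCF Tet2 KO lines 58, the GM-CSF control lines 7 and the GM-CSF Tet2 KO lines 11.

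Tet2 itself, the targeted gene, was the nearest gene of 86 peaks, 8 of them closed at 21.7 to 281 kb from its start site. Those 8 had 36 counts in SCF control lines, 26 in SCF Tet2 KO lines, 6 in GM-CSF control lines and 4 in GM-CSF Tet2 KO lines. No peak of the set lies on exon 3, which was floxed, so the deletion cannot be checked in these counts.

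Among 16 marker lists of cell types, 7 had a larger share of closed peaks than all autosomal peaks, and the blood lineages lay on both sides. Among peaks nearest to T cell genes 19 of 984 (1.93%) were closed, and among those nearest to B and plasma cell genes 10 of 513 (1.95%), beside 2.00% of all autosomal peaks. Gata3, the T helper and innate lymphoid regulator, held 7 of the T cell list's 19, at 118 nearest peaks. Themis, a thymocyte signaling gene, held 4 of 53. On the B cell list, Bank1, an adaptor of B cell receptor signaling, had 3 of 53 and Ebf1, a B lineage factor, 2 of 96.

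The list of natural killer and innate lymphoid cells stood somewhat higher, with 28 of 908 (3.08%). It shares Gata3 with the T cell list, and Klrk1 (3 of 11) and Klra1 (3 of 15), both lectin-like receptors in repeated clusters, added to it, as did Ifng (3 of 71) and Cd226 (3 of 49). Erythroid and megakaryocyte genes had 4 of 342 (1.17%), 3 of them beside Car2, carbonic anhydrase 2.

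Lists of the clones' own lineage, and of housekeeping genes, lay low. Monocyte, macrophage and dendritic cell genes had 6 of 946 nearest peaks closed (0.634%), neutrophil genes 3 of 349 (0.860%), and housekeeping genes 1 of 256 (0.391%). Mast cell, basophil and eosinophil genes had 8 of 354 (2.26%). Stem and early progenitor genes had 40 of 1342 (2.98%), among them Meis1 (6 of 97), a HOX cofactor, and Angpt1 (6 of 63), a ligand of Tek.

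The largest share was beside neuronal genes, at 98 of 832 (11.8%). Nrxn3, a presynaptic adhesion gene, had 12, Csmd3 9, and Dlg2, a postsynaptic scaffold, 9. Neuronal genes are long and lie in AT-rich deserts, and the median GC content of their nearest peaks was 44.2%, against 50.5% over all autosomal peaks. In the band of 38% to 42% GC, 38 of 190 peaks at neuronal genes were closed (20.0%), against 7.44% of all autosomal peaks in that band. In the same band the shares were 6 of 33 (18.2%) for endothelial genes, 17 of 123 (13.8%) for stem and early progenitor genes, 4 of 40 (10.0%) for mast cell, basophil and eosinophil genes, 7 of 121 (5.79%) for natural killer and innate lymphoid genes, 6 of 104 (5.77%) for T cell genes, 1 of 60 (1.67%) for monocyte, macrophage and dendritic cell genes and 0 of 55 for B and plasma cell genes. Over all GC contents, fibroblastic and reticular stroma genes had 24 of 612 (3.92%), with Col3a1 at 7 of 18, and endothelial genes 17 of 691 (2.46%). In the 38% to 42% band the stroma list had 4 of 62 (6.45%), below the 7.44% of all autosomal peaks there. Epithelial and thymic epithelial genes (7 of 472), muscle genes (3 of 215), liver genes (2 of 190) and germ cell genes (4 of 174) lay between 1.05% and 2.30%. In 2 listed genes at least 50% of nearest peaks were closed, Ccl21a (3 of 3) and Myf6, a muscle regulator (3 of 6).

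**Figure D3:**
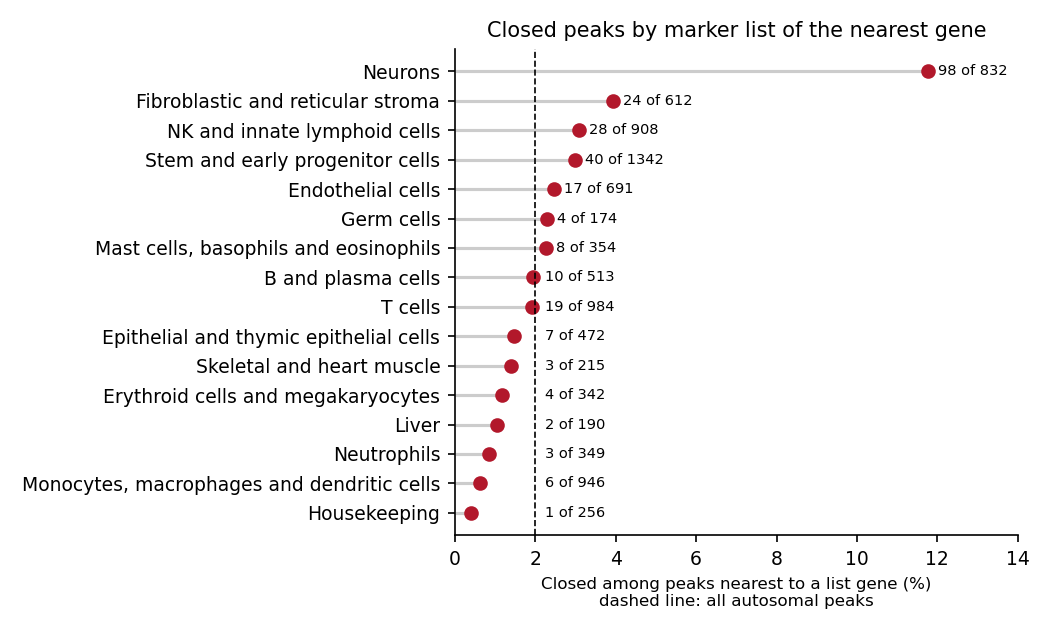
Percent of the autosomal peaks nearest to a gene of each marker list that were closed (x axis), with closed and total peak numbers, and all autosomal peaks as a dashed line at 2.00%. Neuronal genes stand at 11.8%, T cell and B cell genes sit on the line, and housekeeping genes lie at 0.391%.

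Promoters of lineage genes mostly stayed out of the closed set. The strongest promoter peak held 26 counts at Cd3e and 25 at Cd4, both T cell genes, 27 at Pax5, a B cell gene, and 37 at Klf1, an erythroid regulator. These totals lie between the 25th and 75th percentiles of autosomal peaks, 21 and 43 counts. At promoters of the GMP genes Cebpa, Spi1 (PU.1) and Mpo (myeloperoxidase) the totals were 2027, 531 and 615. The Mpo peak had 30.4 CPM (counts over the group total, scaled) in pooled SCF control lines and 3.3 in pooled GM-CSF control lines, while Cebpa had 82.4 and 63.4.

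Among 24141 peaks within 1 kb of a coding gene's start site, 98 were closed (0.406%), at 95 genes, and 47 of these peaks were uniquely placed. The uniquely placed ones had a median GC content of 39.5% and 2 CpGs, against 64.5% and 25 in promoter peaks over 100 counts. Olfactory receptors made up 8 of them. Others, picked after their values were seen, included Csn2, a milk casein (9 counts, 4 bp from the start site), Taar1, a trace amine receptor (10), Scn2a and Scn2b, neuronal sodium channel subunits (10 each), Lrrtm4, a synaptic adhesion gene (9), and Foxp2, a forebrain factor (5).

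Of the 98 closed peaks within 1 kb of a coding start site, 22 were at immunoglobulin or T cell receptor segments. Most of those were not uniquely placed. The promoters named next, at genes linked to immune cells, were all uniquely placed. Klrk1 and Klra7, a Ly49 receptor, are expressed by natural killer cells and had 8 and 10 counts. Ms4a4b, a T cell membrane protein, had 7, and the joining segment Trgj2 of the T cell receptor gamma locus had 4. Skint3, a relative of the thymic selector of gamma delta T cells, had 10. Msr1, the macrophage scavenger receptor, had 9, of which 4 came from SCF control lines, 3 from SCF Tet2 KO lines and 2 from GM-CSF Tet2 KO lines. The promoters named here were chosen after their values were seen.

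Motif content of closed peaks followed base composition, with a few departures at matched GC. Of 26 motifs searched on both strands, 11 were found in a smaller share of closed peaks than of other autosomal peaks. AT-rich motifs were more common in closed peaks, with GATA in 22.4% against 12.3% and the homeobox core (TAATTA) in 11.9% against 4.25%. The GC box of SP and KLF factors (GGGCGG) was in 2.33% against 11.1%.

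Within 38% to 42% GC these contrasts shrank, and RUNX, PU.1 and CTCF motifs were again less common in closed peaks. In that band 10 of the 26 motifs were less common in closed than in other peaks. Departures of similar size went the other way. STAT was in 16.7% of closed and 12.6% of other peaks there, NFI in 21.6% and 17.9%, and IRF in 19.2% and 16.0%. The homeobox core was in 13.4% and 10.6%. RUNX was in 26.0% of the 1752 closed peaks of that band, 31.5% of the other peaks and 50.8% of the 392 peaks over 100 counts. The PU.1 motif was in 4.97%, 7.33% and 11.5%. The core of CTCF, the insulator protein, was in 1.88%, 4.60% and 6.63%. C/EBP was in 19.9%, 19.4% and 28.3%. It was thus higher in peaks over 100 counts than in either of the other classes. The GC box was in 1.48% of both closed and other peaks. These shares describe letters and say nothing of binding.

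The share of counts in closed peaks was next read by cytokine and Tet2 genotype. Pooled over libraries, it was 0.223% in SCF control lines (95% Wilson interval 0.220% to 0.226%), 0.213% in SCF Tet2 KO lines (0.210% to 0.216%), 0.216% in GM-CSF control lines (0.209% to 0.223%) and 0.236% in GM-CSF Tet2 KO lines (0.227% to 0.246%). The intervals cover counting error alone. The spread between clones was far wider, from 0.123% to 0.358% over the 24 SCF control lines (median 0.233%) and from 0.100% to 0.401% over the 24 SCF Tet2 KO lines (median 0.219%). In the GM-CSF clones 19, 20, 21 and 22 the control lines had 0.257%, 0.280%, 0.202% and 0.212%, and the Tet2 KO lines 0.311%, 0.30%, 0.224% and 0.237%. GM-CSF and SCF lines thus overlapped fully.

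These shares rest on the same counts that chose the peaks, so the tests of the share used peaks chosen without the clone in question. For each clone the 5840 autosomal peaks with the lowest totals over the other 27 clones were taken, and the clone's own counts in them were divided by its total. Such held-out shares averaged 0.382% over the 56 libraries, against 0.236% for the peaks chosen on all libraries, since a peak chosen for few counts is partly chosen by counting error. Even 0.382% is below the 1.96% that an equal spread over all peaks would give.

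In SCF, Tet2 KO and control lines showed no common direction of the closed share. Held-out shares were 0.382% ± 0.103 (SD, n = 24) in control lines and 0.371% ± 0.122 in Tet2 KO lines, and the paired difference was -0.0105 percentage points ± 0.139 (SD), with an SE of 0.0284. The KO line was higher in 12 of 24 pairs (p = 0.713, sign-flip permutation test paired by clone, two-sided). Single pairs moved widely, from -0.283 points in clone 14 to 0.227 in clone 29. The mean was -0.00128 in clones 1 to 18 (n = 17; p = 0.969, permutation test) and -0.0329 in clones 23 to 29 (n = 7; p = 0.578, exact permutation test).

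**Figure D4:**
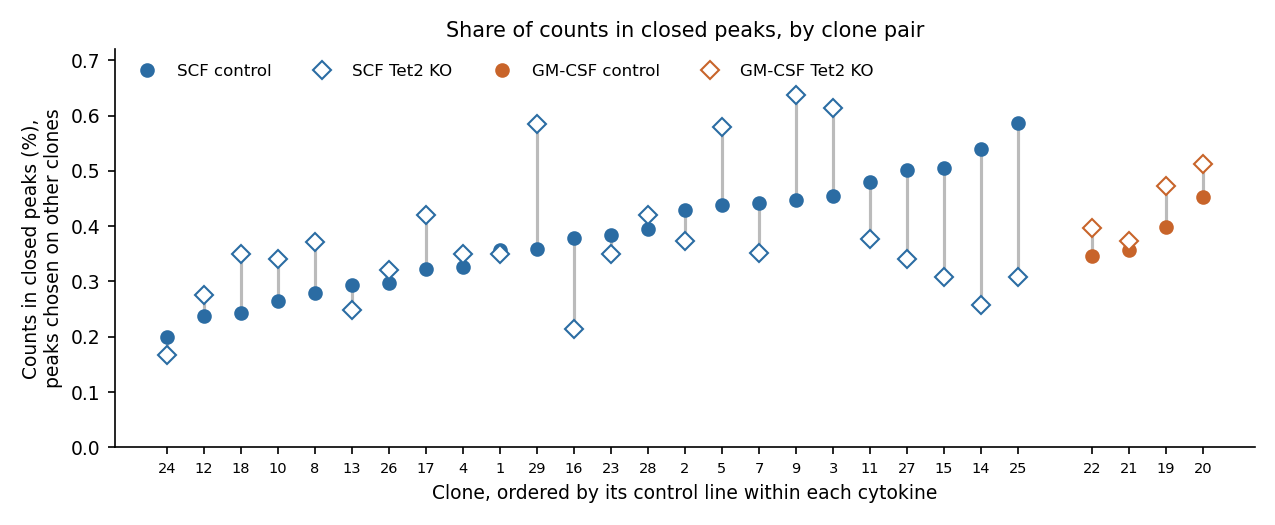
Percent of each library's counts in closed peaks chosen on the other clones (y axis) by clone (x axis), control lines as filled circles and Tet2 KO lines as open diamonds joined within a clone, SCF in blue and GM-CSF in orange. SCF pairs move both ways, and in all 4 GM-CSF pairs the KO line is higher.

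In GM-CSF, the Tet2 KO line was higher in 4 of 4 pairs. Held-out shares in clones 19, 20, 21 and 22 were 0.398%, 0.452%, 0.357% and 0.345% in control lines and 0.472%, 0.513%, 0.374% and 0.397% in Tet2 KO lines. The mean difference was 0.0509 points ± 0.0246 (SD, n = 4; p = 0.13, exact sign-flip permutation test), which is the smallest p that 4 pairs allow. The Tet2 KO libraries of clones 19 and 20 did not differ detectably over nearest-gene sums (chi-square test, 323 degrees of freedom, p = 0.804). They were the single such pair among 564 pairs of libraries of the same group. Their totals were only 40876 and 39379 counts, against a median of 389432, so the test had little power. The control libraries of the same clones did differ. Whether the clones are 1 lineage cannot be told from this test. Counted as 1 clone, clones 19 and 20 left a mean difference of 0.0454 points over 3 clones. The effect in GM-CSF exceeded that in SCF by 0.0614 points (p = 0.396, exact permutation test over clones), within the spread of the SCF pairs.

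Cytokine gave no detectable difference in control lines. The held-out share was 0.388% ± 0.0483 (SD, n = 4) in GM-CSF and 0.382% ± 0.103 (n = 24) in SCF, a difference of 0.00634 points (p = 0.906, exact permutation test). The limit of 10 counts does not bind both cytokines alike, since GM-CSF libraries held 11.2% of all counts. A peak with all 10 counts in SCF libraries would have 0.503 CPM there, and one with all 10 in GM-CSF libraries 4.00. With peaks chosen on SCF clones alone the difference was 0.0203 points, and with peaks chosen on GM-CSF clones alone 0.0316.

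The closed share instead moved with the promoter share, the percent of counts in peaks within 1 kb of a start site, which is often read as signal over background. Promoter shares ran from 36.6% to 52.7% in SCF control lines (median 46.7%), from 34.5% to 53.7% in SCF Tet2 KO lines, and from 38.2% to 46.2% in the 8 GM-CSF libraries. Across the 24 SCF control lines, held-out closed share and promoter share gave Pearson's r = -0.90 (permutation p = 1e-05, the smallest the draws can give) and Spearman's rho = -0.92 (permutation p = 1e-05). Without the 2 lines farthest from the median promoter share r was -0.87. Within clones 1 to 18 it was -0.86 (n = 17) and within clones 23 to 29 -0.99 (n = 7, exact permutation p = 0.000198). Both shares have the same denominator, and with counts outside promoters as the denominator of the closed share r was -0.79.

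The same held within SCF clones. The change of closed share from control to Tet2 KO line went with the change of promoter share over the 24 SCF pairs (r = -0.93, permutation p = 1e-05; rho = -0.88, permutation p = 1e-05; r = -0.92 without the 2 farthest pairs). In clone 14 the promoter share rose by 12.4 points and the closed share fell by 0.283, and in clone 3 the promoter share was 10.4 points lower and the closed share 0.161 higher. With 2 relations tested, the adjusted p-values of Pearson's r (Benjamini-Hochberg) were 1e-05. Mean GC content of peaks, weighted by counts, was 55.5% in the SCF Tet2 KO line of clone 9, the lowest in promoter share. In that of clone 16, the highest in promoter share, it was 58.9%. What moves the promoter share, and whether GC content underlies the relation, was not tested.

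**Figure D5:**
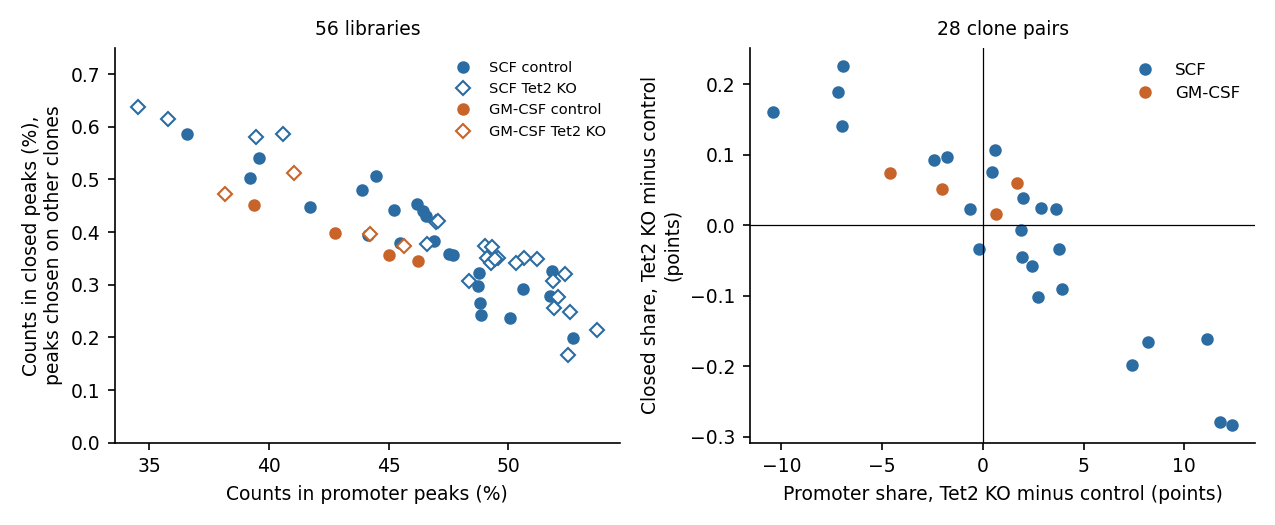
Left, percent of counts in closed peaks chosen on the other clones (y axis) against percent in promoter peaks (x axis) in the 56 libraries. Right, Tet2 KO minus control differences of both shares, in percentage points, in the 28 clone pairs. In SCF, closed share falls as promoter share rises in both panels, with r = -0.90 over the 24 control lines and r = -0.93 over the 24 pairs. No r was computed for GM-CSF. There both shares were higher in the KO line of clones 20 and 21, while in clones 19 and 22 the promoter share was lower.

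Closed peaks with at least 2 counts in the control line, 5 to 316 per SCF clone, were followed into the KO lines. Per 1000 closed counts, the sister KO line had a mean of 13.8 in those peaks and the other SCF KO lines 13.8 on average. The log2 ratio averaged -0.02 ± 0.53 (SD, n = 24) and was above 0 in 12 of 24 clones. The limit of 10 counts includes the sister line and removes peaks in which both lines are high, so the ratio is a description with no test.

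Concentration of closed peaks in 1 clone is given as a description, since the limit of 10 counts removes peaks with many counts in any clone. Of 4378 closed peaks with 8 or more counts, 2166 had counts in both lines of some clone, and in 8 of them that clone held at least 50% of the counts. The most concentrated was a peak 281 kb from the start site of Nfib, a developmental transcription factor (chr4:82224302-82224602), where GM-CSF clone 22 had 2 counts in its control line and 3 in its KO line of 9 in all. A peak of clone 25 near Dhx35 had 3 and 2 of 10, a peak of clone 21 near Fam110b 3 and 2 of 10, and a peak of clone 9 near Vopp1 2 and 3 of 10. Clone 8 had 1 and 4 of 10 near Neil3, and clone 9 had 1 and 3 of 8 near Nrxn3. Clone 21 had 3 and 1 of 8 near Pelo, and clone 25 3 and 1 of 8 near Sema6a. In clone 5 the peaks near Nr4a2 and Pcdh18 had 4 of 9 counts each. All 10 were uniquely placed.

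GM-CSF libraries had no count in 2222 closed peaks, where 3 counts would correspond to 1.20 CPM, and 1 or 2 counts in 2173 and 1027 more. The highest GM-CSF count was 6, at a peak 50.1 kb from Syt6 (chr3:103524960-103525260), which had 3 counts in SCF libraries. A further 18 peaks had 5. By group, 60 closed peaks had no count in SCF control lines, 177 in SCF Tet2 KO lines, 3343 in GM-CSF control lines and 3918 in GM-CSF Tet2 KO lines, with totals of 10882840, 8995970, 1513321 and 987016 counts.

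Closed counts were also added over windows of 5 Mb. The limit that chose the peaks bounds these sums, so the counts of calls are given as a description and nothing is read from them. No window passed the filter (edgeR's filterByExpr, minimum count 10) for Tet2 KO against control in SCF. With every window above 0 kept, 0 of 493 passed (0.00%) in edgeR's quasi-likelihood test with the clone as a block at an adjusted p of 0.05 (13 at an unadjusted p under 0.05), and DESeq2 called 0 (12 unadjusted). For GM-CSF against SCF control lines 3 windows passed the filter and 0 were called (0.00%; 0 at an unadjusted p under 0.05, and 0 by DESeq2). With every window above 0 kept, edgeR called 1 of 493 (0.203%; 33 unadjusted) and DESeq2 0 (10 unadjusted). With peaks of up to 20 counts, of which the closed peaks are 5840 of 65701, edgeR called 3 of 484 (0.620%; 48 unadjusted). Over whole autosomes 0 of 19 were called in either comparison (0.00%; 2 and 1 unadjusted in edgeR), and DESeq2 called 0 in both (2 and 0 unadjusted). Chromosome 1 held 6.97% to 11.0% of a clone's closed counts (median 9.04%), highest in clone 5 with 11.0% (95% Wilson interval 9.84% to 12.3%) and clone 13 with 10.7% (8.80% to 12.9%).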

How the data were processed

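The authors deposited unnormalized counts for each peak in each library (mm10). The labels name Bowtie2, SAMtools and Picard. Peaks were MACS2 summits of single-cell data joined with ImmGen atlas regions. The handling of duplicate reads is not stated in the sources read, and intervals cover counting error only. Total counts per library were 39379 to 1079233 (median 389432).

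Closed peaks were those with 10 or fewer counts on autosomes. The members, marker lists and tests were chosen with earlier results of these data known. Nearest genes came from GENCODE vM21 basic (coding, immunoglobulin and T cell receptor starts). Uniqueness was the number of 5 pieces of 60 bases that minimap2 2.31 placed with mapping quality of at least 10. Clones pair the lines because each pair came from 1 cell. Shares used sign-flip and label permutation tests (100000 draws, or exact). Windows used edgeR 4.0.16 (quasi-likelihood test, TMM, Benjamini-Hochberg) and DESeq2 1.42.0 in R 4.3.3, tested on simulated data. Clones with a library under 50% of the median total (6 clones) were kept, and left out as an alternative. Whole autosomes, DESeq2 without a filter, the 38% to 42% GC band and uniquely placed peaks were added after seeing the data. CPM is counts per library total, pooled by group.

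Named genes were the 15 with most closed peaks, list genes with at least 50% of nearest peaks closed, the 5 longest runs, called windows, the peak closest to a start site in each of 7 lists (its sequence is printed), and the 10 peaks most concentrated in 1 clone. All other genes were named after their values were seen. Some genes that the rule names are not reported here.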

Additional observations from a re-analysis of the deposited data

Results flagged for a closer look

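Among 13 sets of 4 GM-CSF values examined, 2 held a value far from the other 3 (about 1 set in 20 does so by chance). With the peaks chosen on all libraries, the Tet2 KO minus control difference in closed share was 0.0539 points in clone 19, against 0.0197 to 0.0248 in clones 20, 21 and 22. Its KO library was shallow, with 127 closed counts of 40876. With the held-out peaks the same set held no such value. The chromosome 1 share of closed counts was 6.97% in clone 22 (95% Wilson interval 6.07% to 8.00%), against 9.00% to 9.04% in clones 19, 20 and 21.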

How the results depend on the processing

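The relation of closed share to promoter share kept its direction and threshold in all 6 alternatives run (r from -0.99 to -0.79). For the closed share, neither the SCF Tet2 nor the cytokine comparison reached p = 0.05 in the 12 and 17 alternatives run. The paired GM-CSF Tet2 test cannot reach 0.05 with 4 clones or fewer, so its p says nothing of stability, and its difference was above 0 in all 13 alternatives. With a ceiling of 20 counts, which takes in 65701 peaks, the SCF Tet2, cytokine and GM-CSF Tet2 differences were -0.0920, 0.622 and 0.738 points. Differences changed sign in places. Tet2 KO minus control in SCF was 0.000981 points (p = 0.966, permutation test) when each peak was counted at most once per library. GM-CSF minus SCF was -0.00175 with a ceiling of 5 counts, -0.0208 with counts outside promoters as denominator, -0.0282 without clones holding a shallow library (2 GM-CSF clones left), -0.000844 against clones 23 to 29, and -0.00596 with clones 19 and 20 counted as 1. Leaving out each GM-CSF clone gave -0.0150 (without clone 20) to 0.0206. The cause was not tested. Uniquely placed peaks alone (chosen after seeing the data, like the counting of clones 19 and 20 as 1) gave -0.00963, 0.00186 and 0.0433 points for the SCF Tet2, cytokine and GM-CSF Tet2 comparisons. Without the pairing by clone, the Tet2 differences were -0.0105 points in SCF (p = 0.749, permutation test) and 0.0509 in GM-CSF (p = 0.257, exact permutation test), and no call changed. The log2 ratio of sister to other KO lines was 0.0597 with a ceiling of 20 counts and negative in the other 10 alternatives, and no test is read from it because the limit bounds it. GM-CSF against SCF windows gave 1 call of 493 with no filter and 3 of 484 with a ceiling of 20 counts, and 0 elsewhere. Stricter settings left no window to test in several alternatives of both window comparisons, such as the ceiling of 5 counts, so no value is given for those. The number of marker lists above all autosomal peaks was 7 of 16, and 7 to 10 in the alternatives. The number of motifs less common in closed peaks was 11 of 26, and 10 or 11. Depth limits all of this, since a median closed peak has 9 counts in 56 libraries.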

Other observations

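Peaks of 11 to 20 counts held 4.45% of pooled counts in SCF control lines, 4.25% in SCF Tet2 KO lines, 4.60% in GM-CSF control lines and 5.04% in GM-CSF Tet2 KO lines. GM-CSF Tet2 KO lines were highest and SCF Tet2 KO lines lowest both there and in closed peaks. Peaks over 100 counts ran the other way, with 61.7%, 63.8%, 57.2% and 55.9%. No test was made.

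Of 24 closed peaks with 60% GC or more, 4 were uniquely placed. One of the 4 was a promoter peak of Meioc, a meiosis gene, with 29 CpGs and 9 counts.

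On the X chromosome, which the rule leaves out, 557 of 5360 peaks (10.4%) had 10 or fewer counts, against 2.00% on autosomes.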
